A study of Rattus norvegicus with 13 samples.

Results

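Rat lenses cultured with galactose for 4 days were compared with 1 control lens sample cultured for the same time, across all genes with a measurable signal. The series held 13 arrays, of which 4 entered this comparison, namely the 1 control array and the 3 galactose Day 4 arrays, called replicates 1, 2 and 3. All lenses came from 6-week-old male Sprague Dawley rats and were kept ex vivo, outside the eye, in M199 medium with 0.1% BSA. Galactose was present at 30 mM in the Day 4 samples, and sterile water took its place in the control. A gene was a name carried by a probe set with 1 gene symbol, read on the probe set with the highest mean. Genes with a log2 signal of 5 or more on any of the 4 arrays were tested, 6150 of 18166 in all. The sources used here do not say whether the Day 4 samples came from different animals, so their p-values may measure technical spread only. The control was a single array with no spread of its own. The spread was therefore estimated from the 3 Day 4 arrays and 3 arrays of galactose Day 6 lenses, with 4 residual degrees of freedom, and the control was assumed to vary like them.

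The lens is an avascular tissue made of fibre cells, which lose their nuclei and are packed with crystallins, under a single sheet of epithelial cells that keep dividing and feed new fibres. In a medium rich in galactose, lens aldose reductase turns the sugar into the sugar alcohol galactitol, which crosses membranes poorly, draws in water and swells the fibres. Cells that face a strongly osmotic medium usually raise genes for the uptake of compatible solutes such as myo-inositol and taurine under the transcription factor Nfat5, while stress of the endoplasmic reticulum, oxidants and amino acid shortage raise genes of their own.

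The arrays agreed in scale. Median log2 signals over the genes tested were 5.86 in the control and 5.87 to 5.95 on Day 4, and 5121 genes reached 5 in the control against 5175 to 5420 on Day 4. Day 4 replicate 1 stood apart from its group, with log2 signals that differed from replicates 2 and 3 by a root mean square of 0.435 and 0.457, while those 2 differed by 0.294. All 3 differed more from the control, by 0.675, 0.606 and 0.621. The tissue carried its defining markers. The 11 measured crystallins had a mean log2 signal of 11.46 in the control and of 11.47, 11.57 and 11.54 on Day 4. Markers of photoreceptors, pigment epithelium, vascular endothelium, corneal epithelium, red blood cells and fibroblasts all stayed under 5 in the 4 arrays, the highest being a photoreceptor gene at 4.60. Of 14 macrophage and immune cell markers on the array 3 were measurable, and they did not go one way. Lyz2, which encodes a lysozyme, and Fcer1g, an immunoglobulin receptor chain, were lower with galactose, and both passed the minimum through the control alone. Lyz2 was at 5.05 in the control and at 3.77, 3.45 and 2.91 on Day 4, and Fcer1g at 5.41 against 3.96, 3.84 and 3.88 (limma adjusted p = 0.0409 and 0.0439). Both calls were lost without Day 4 replicate 2, at adjusted p = 0.0958 and 0.105. Cd68, a macrophage lysosomal protein, lay above the control without being called, at 3.49 against 5.05, 3.71 and 4.14 (adjusted p = 0.356). Des, the muscle intermediate filament gene desmin, was the only one of 8 smooth muscle markers that was measurable, and 2 of 6 skeletal muscle markers were, neither of them called.

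Of the 6150 genes tested, 288 (4.68%) were called at a Benjamini-Hochberg adjusted p under 0.05 in limma, with two-sided tests. With galactose 173 genes (2.81%) were higher and 115 genes (1.87%) were lower. Counts of called genes in a list are to be read beside these shares. At an unadjusted p under 0.05 there were 1427 genes. The median difference over all genes tested was 0.05 on the log2 scale, and 90% of them lay between -0.84 and 0.94. Called increases had a median of 1.32 and called decreases one of -1.33. All 288 called genes lay on 1 side of the control in all 3 Day 4 arrays, which the test itself favours. Over all genes tested, 2340 were above the control in all 3 arrays, 1857 were below it and 1953 were on both sides, with 1 control array behind every such count. The control was under 5 for 90 of the higher genes, and the Day 4 mean was under 5 for 59 of the lower genes. Such signals need not be above background, so the differences of these genes have no exact size, are not ranked, and are given below as signals. Medians over calls or lists include them and are descriptions on the deposited scale. The minimum itself favours genes that differ, since 1029 tested genes had a control under 5 and entered through a Day 4 array, while 238 entered through the control alone. The median of a list over its measured members is therefore no support for a direction, and where a median in the text moved by over 0.1 without the minimum, the value over every member on the array is given beside it. That median over all 18166 genes was 0.03. The number of calls depended on single arrays. It was 98 without Day 4 replicate 2, 121 without Day 4 replicate 3, 145 without Day 6 replicate 2 and 148 without Day 6 replicate 3, and 76 genes (46 higher and 30 lower) were called in every fit that left out 1 of the 6 galactose arrays. These 76 genes are named below as held.

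**Figure D1:**
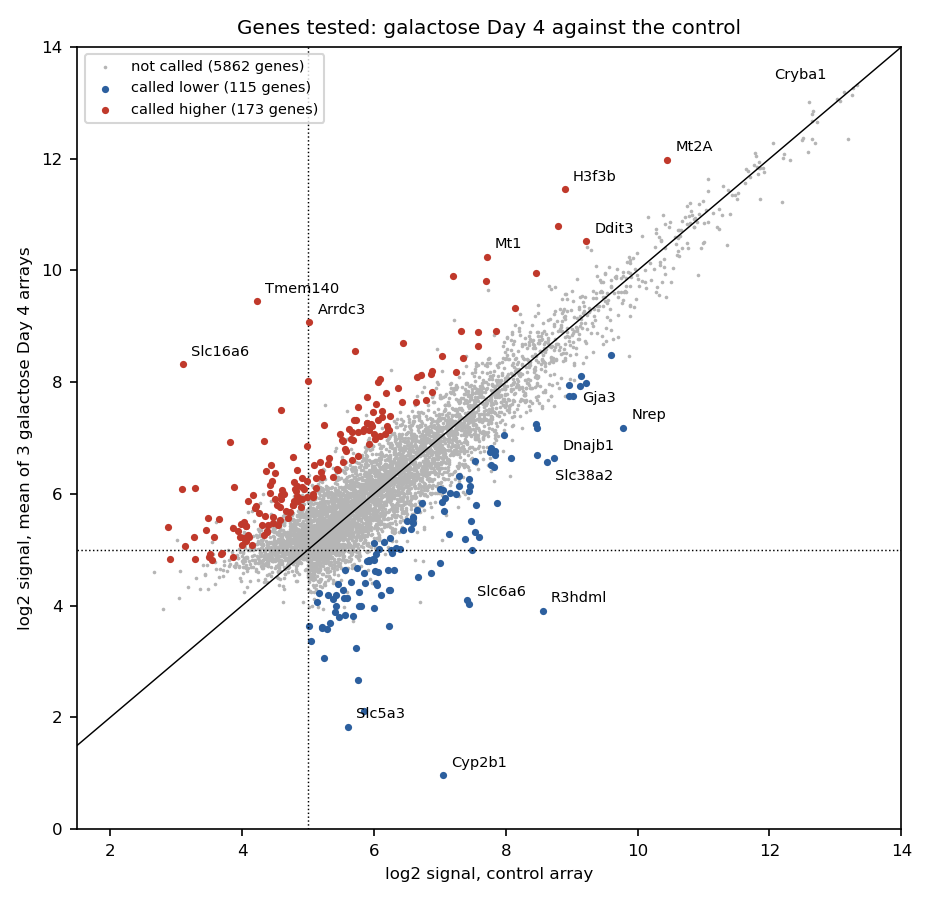
Log2 signal of the 6150 genes tested in the control array (x axis) and mean log2 signal of the 3 galactose Day 4 arrays (y axis). Red points are the 173 genes called higher, blue points the 115 genes called lower, grey points the others, the solid line marks equal signals and the dotted lines a signal of 5. The crystallin gene Cryba1 lies on the line at the top, while Cyp2b1 and Slc5a3 lie far below it.

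Several genes for osmolyte uptake were lower with galactose. Of 9 measured genes of the osmotic response and osmolyte transport 5 were called lower and none higher, with a median log2 difference of -1.25 against 0.05 over all genes. Of these 9 genes 4, all of them among the 5 called, entered through the control alone and were bound to lie lower. The count is therefore no support for a direction, beside 1.87% called lower over all genes tested. Over the 11 members on the array the median was -1.03, and over the 3 at 5 or more in all 4 arrays it was -0.29. Slc5a3, which carries myo-inositol into the cell, had a log2 signal of 5.61 in the control and of 2.06, 1.57 and 1.87 on Day 4 (limma adjusted p = 0.00269). Slc6a6, the taurine transporter gene, was at 7.44 in the control and at 4.40, 3.65 and 4.03 on Day 4 (adjusted p = 0.00243). Slc38a2, a carrier of small neutral amino acids that is also raised by hypertonic media, was at 8.62 in the control and at 6.57, 6.30 and 6.86 on Day 4, a log2 difference of -2.05 (SE 0.25, adjusted p = 0.00413). In each of these 3 genes the smallest gap to the control was wider than the range of the Day 4 arrays. Nfat5 itself was at 6.21 against 4.77, 4.24 and 4.88 (adjusted p = 0.0439). Sgk1, a kinase that responds to cell volume and to glucocorticoids, was at 5.38 against 3.81, 4.12 and 4.45 (adjusted p = 0.0394). The calls of Slc5a3, Slc6a6 and Slc38a2 held, whereas Nfat5 and Sgk1 were not called without Day 4 replicate 2 (adjusted p = 0.0991 and 0.0987). The sodium, potassium and chloride cotransporter gene Slc12a2 did not pass the test, at 6.03 in the control and 4.96, 4.92 and 5.12 on Day 4 (adjusted p = 0.0703).

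The enzymes that handle galactose itself did not pass the test in either direction. None of the 8 measured genes of polyol and galactose metabolism was called, and their median log2 difference was 0.19. Akr1b1, the aldose reductase gene, was at 9.96 in the control and at 9.97, 10.21 and 9.92 on Day 4, so that the control lay inside the range of the replicates. Sord, the sorbitol dehydrogenase gene, had 5.73 against 5.42, 5.29 and 5.51 (adjusted p = 0.545). Galt, the uridylyltransferase of the pathway that breaks galactose down, had 4.60 against 5.33, 5.44 and 5.09 (adjusted p = 0.101). Neither the 16 measured glycolysis and hypoxia genes nor the 5 pentose phosphate genes held a call.

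Some lens epithelium genes were lower with galactose, while few or none of the crystallin and fibre cell genes were called. Of 13 measured epithelium markers 5 were called lower and none higher, with a median log2 difference of -1.23, and 11 of the 13 were below the control in all 3 arrays. Of these 13 genes 2, Foxe3 among them, entered through the control alone and were bound to lie lower. Over the 14 members on the array the median was -0.92, and over the 9 at 5 or more in all 4 arrays it was -0.59. Of all genes tested, 1.87% were called lower. Of 11 crystallins 0 and of 14 fibre cell markers 1 were called, with medians of -0.02 and -0.19. The brightest crystallins, at up to 13.37, lay at the arrays' maximum signals of 13.30 to 13.38, where a difference may not show, so their values near the control are no measure of an unchanged level. The mean over the 13 epithelium markers was 7.56 in the control and 5.76, 6.48 and 6.61 in Day 4 replicates 1, 2 and 3. Replicate 1 was thus the lowest, as it was for Gja1, the epithelial connexin gene, at 7.19 in the control and 5.30, 7.32 and 7.64 on Day 4. In whole lenses, fewer epithelial cells and less of these RNAs per cell cannot be told apart.

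**Figure D2:**
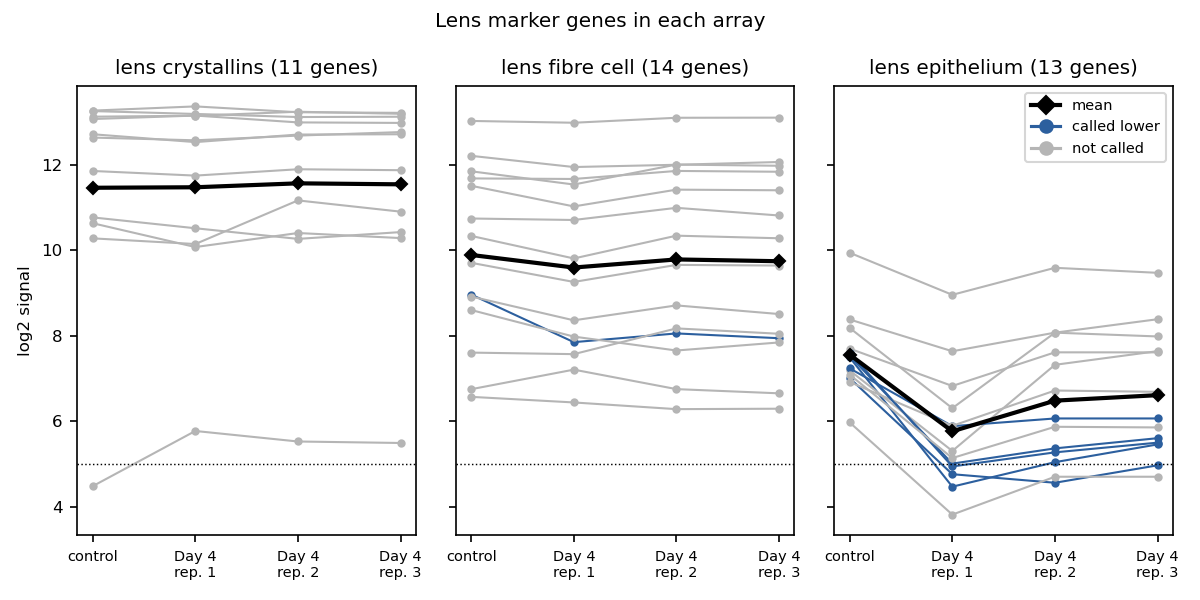
Log2 signal of the measured lens crystallins (11 genes), lens fibre cell markers (14 genes) and lens epithelium markers (13 genes) in the control and the 3 galactose Day 4 arrays. Thin lines are genes, in blue where called lower, black diamonds are the means over the genes of a panel, and the dotted line marks 5. The epithelium mean goes from 7.56 in the control to 5.76 in replicate 1, while the crystallin mean stays between 11.46 and 11.57.

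Among the epithelium markers, Pdgfra, the receptor for a growth factor that drives epithelial division, was at 7.60 in the control and at 4.94, 5.27 and 5.50 on Day 4 (adjusted p = 0.00448). Foxe3, a forkhead factor made by the epithelium, was at 7.01 against 4.76, 4.56 and 4.97 (adjusted p = 0.00633), and Aqp1, its water channel, at 7.49 against 4.47, 5.04 and 5.46 (adjusted p = 0.00893). The 3 calls held. Six3, a homeobox gene of the eye field, was at 7.24 against 5.88, 6.06 and 6.06, a log2 difference of -1.23 (SE 0.23, adjusted p = 0.0266). Mab21l1, which lens development requires in mice, was at 7.53 against 5.01, 5.36 and 5.60 (difference -2.21, SE 0.49, adjusted p = 0.0419). Without Day 4 replicate 2 the calls of Six3 and Mab21l1 were lost (adjusted p = 0.072 and 0.0987). Foxe3, Six3, Mab21l1 and Gata3 were the 4 genes called lower among 14 measured developmental genes of the eye field and lens. None was higher (median -0.62, and -0.39 over the 17 on the array). Foxe3 and Gata3 entered through the control alone and were bound to lie lower. The count is to be read beside 1.87% called lower over all genes tested. Gata3 was at 5.56 against 4.61, 4.64 and 4.69 (adjusted p = 0.0439, and 0.105 without Day 4 replicate 2). Pax6, the factor that specifies the eye, was at 7.70 against 6.82, 7.61 and 7.61 and was not called (adjusted p = 0.724). The epithelium means given above moved with these genes, and their part in the values was not tested.

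Fibre membranes gave 1 called gene of their own. Gja3, a connexin of fibre cell gap junctions, fell from 8.96 in the control to 7.85, 8.05 and 7.94, a log2 difference of -1.02 (SE 0.21, limma adjusted p = 0.0329). All 3 replicates lay close together and about 1 below the control, and the adjusted p was 0.0828 without Day 4 replicate 3. Of 12 measured connexins, aquaporins and fibre membrane genes, 2 were lower (Gja3 and Aqp1) and none higher, with a median of -0.55. None of the 10 measured capsule collagens and laminins was called. Col4a1, the main collagen of the capsule, was at 7.83 in the control and at 5.61, 6.46 and 6.64 on Day 4 (adjusted p = 0.08), again lowest in replicate 1.

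The largest decrease measured on both sides was that of Nrep, which encodes a small neuronal protein. Its log2 signal was 9.78 in the control and 6.67, 7.31 and 7.57 on Day 4, a difference of -2.59 (SE 0.56, adjusted p = 0.0392). Then came Mab21l1, described above, and Arhgap24, whose product switches off the GTPases Rac and Cdc42, at 7.38 against 5.06, 5.23 and 5.30 (-2.18, SE 0.39, adjusted p = 0.0198). Dnajb1, a co-chaperone of Hsp70, fell from 8.73 to 6.42, 6.53 and 6.97 (-2.09, SE 0.25, adjusted p = 0.00355). Srebf1, a transcription factor of fatty acid synthesis, fell from 7.47 to 5.45, 5.64 and 5.46 (-1.95, SE 0.21, adjusted p = 0.00249). The calls of Dnajb1, Slc38a2, Srebf1, Mtmr10 and Marcks held among the 15 largest measured decreases. The others were Lix1, Tox3, Nr1d1, Sall1, Arhgap5, Pnkd and Tmem88, with differences between -1.77 and -1.26. Marcks, a membrane protein that binds actin and is a substrate of protein kinase C, was at 7.45 against 6.06, 6.10 and 6.26. Sall1, a zinc finger factor of development, was at 7.06 against 5.64, 5.85 and 5.60, and Nr1d1, a repressor of the circadian clock, at 7.45 against 6.31, 5.86 and 5.99. No other gene of 12 measured clock genes was called. Without Day 4 replicate 2, Nrep and Arhgap24 reached adjusted p = 0.0931 and 0.0598, and Lix1, Tox3, Nr1d1, Pnkd and Tmem88 lay between 0.0598 and 0.0991. Sall1 and Arhgap5 were at 0.0701 and 0.109 without Day 4 replicate 3.

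**Figure D3:**
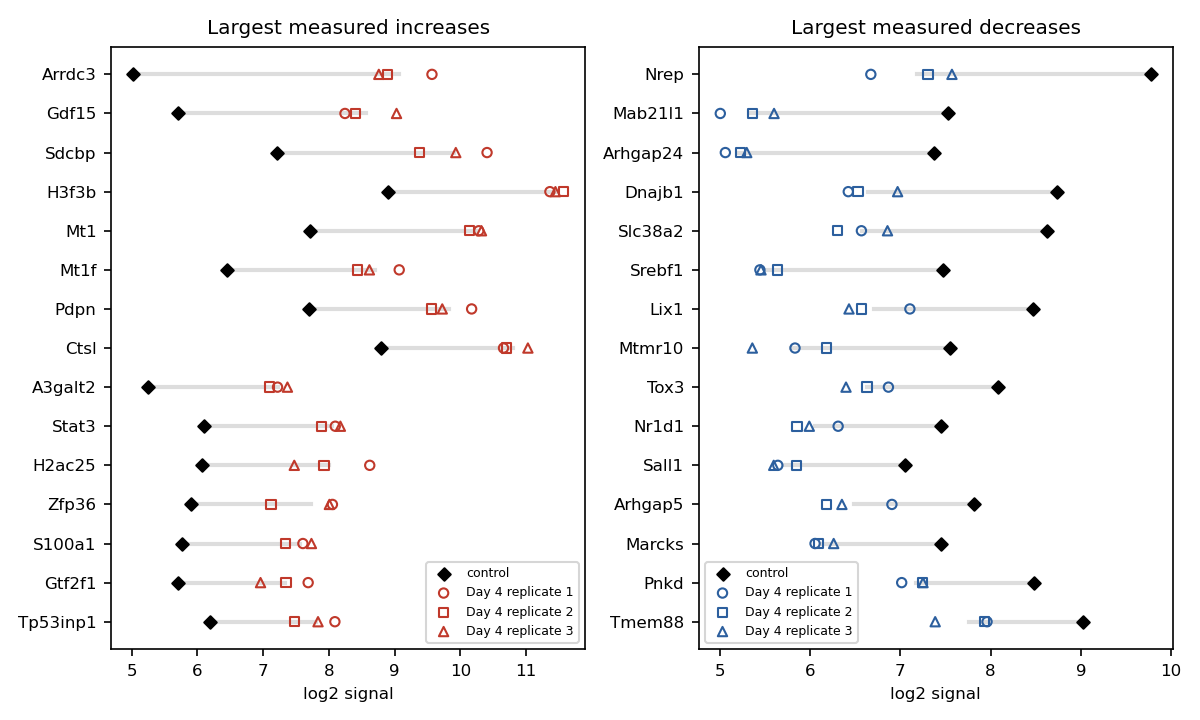
Log2 signal (x axis) of the 15 largest increases (left) and the 15 largest decreases (right) among called genes with all 4 arrays at 5 or more, in order of the difference from the top. Black diamonds are the control, open circles, squares and triangles Day 4 replicates 1, 2 and 3, and grey bars join the control to the Day 4 mean. In every gene the 3 replicates lie on 1 side of the control, from Arrdc3 at 5.02 against 8.76 to 9.57 down to Tmem88 at 9.02 against 7.39 to 7.96.

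Other decreases ended under a signal of 5. Cyp2b1, a cytochrome P450 gene best known in the liver, had 7.04 in the control and 0.58, 1.13 and 1.19 on Day 4 (adjusted p = 1.25e-05), and its Day 6 signals were 1.16, 0.85 and 0.86. R3hdml was at 8.56 in the control and at 3.81, 4.25 and 3.67 on Day 4 (adjusted p = 0.000405). Des was at 6.23 against 3.75, 3.54 and 3.62 (adjusted p = 0.00131), and Htra3, a secreted serine protease, at 7.41 against 4.05, 4.48 and 3.77 (adjusted p = 0.00296). Kcne4, a potassium channel subunit, Nat8f3 and Mamdc2 were also lower, with all their Day 4 signals under 3.4 and control signals of 5.73 to 5.85. Spry1, an inhibitor of FGF signals, was at 5.21 against 3.43, 3.73 and 3.62 (adjusted p = 0.00792), and Inhba, the subunit of activin A, at 6.66 against 3.89, 4.77 and 4.87 (adjusted p = 0.027). Spry1 and Inhba were the only called genes among 5 measured FGF feedback genes and 7 genes of TGF-beta, activin and BMP signals. All of these calls held except those of Kcne4 and Inhba, at adjusted p = 0.0533 and 0.0572 without Day 4 replicate 2.

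Of 14 measured Foxo and insulin responsive genes 2 were lower and none higher, beside 1.87% lower and 2.81% higher over all genes tested. The median was -0.24, and -0.10 over the 20 members on the array. Of the 14 genes 3 entered through the control alone, among them both called genes, so their count is no support for a direction. Over the 9 genes at 5 or more in all 4 arrays the median was -0.01. Irs1, the adaptor of the insulin receptor, was at 5.87 in the control and at 4.38, 4.29 and 4.54 on Day 4 (adjusted p = 0.0308). Bcl6, a repressor that Foxo factors raise, was at 6.31 against 4.58, 4.51 and 4.82 (adjusted p = 0.0172). Of 8 measured G1 cyclins and inhibitors, Cdkn1c, which halts the cycle in differentiating fibres, was lower, at 8.45 against 7.46, 7.17 and 7.13 (-1.20, SE 0.23, adjusted p = 0.0266). Without Day 4 replicate 2 these genes were not called, at adjusted p = 0.0853 for Irs1, 0.057 for Bcl6 and 0.0811 for Cdkn1c.

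Stress genes rose in part. In the integrated stress response, phosphorylation of eIF2 slows translation and favours Atf4. Of its 22 measured genes 3 were higher and 1 lower, beside 2.81% and 1.87% over all genes tested, with a median of 0.09. Atf3, a transcription factor of this response, was at 3.82 in the control and at 7.11, 6.51 and 7.19 on Day 4 (adjusted p = 0.00148). Gdf15, a secreted stress hormone, rose from 5.71 to 8.24, 8.40 and 9.03, 7.2-fold (log2 difference 2.85, SE 0.31, adjusted p = 0.00291). Ddit3, the factor CHOP that promotes cell death under stress, rose from 9.22 to 10.60, 10.49 and 10.50, 2.48-fold (1.31, SE 0.30, adjusted p = 0.0439). Its Day 6 signals were 10.03, 9.29 and 9.97, the middle one close to the control. Atf5 fell, from 9.14 to 7.93, 8.05 and 8.33 (-1.04, SE 0.22, adjusted p = 0.0392). Atf4 itself, which is controlled mostly at translation, was at 9.84 against 9.94, 10.18 and 10.35 (adjusted p = 0.461), and the Atf4 target Asns at 7.31 against 7.76, 7.42 and 7.37 (adjusted p = 0.649). Atf3 and Gdf15 held, whereas Ddit3 and Atf5 both had an adjusted p of 0.0991 without Day 4 replicate 2. Of 18 measured aminoacyl-tRNA synthetases only Rars1 was called, higher, at 5.68 against 7.23, 6.99 and 6.68 (adjusted p = 0.039, and 0.0958 without Day 4 replicate 2).

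Chaperones of the endoplasmic reticulum gave 2 higher genes and no lower one among 21 measured, beside 2.81% higher and 1.87% lower over all genes. The median log2 difference was 0.34, and 13 of the 21 were above the control in all 3 arrays. Hspa5, the chaperone BiP, rose from 8.46 to 9.58, 9.97 and 10.31, 2.82-fold (1.49, SE 0.28, limma adjusted p = 0.0259). Dnajb11, a co-chaperone of BiP, rose from 5.07 to 5.97, 5.96 and 6.04 (0.92, SE 0.19, adjusted p = 0.0371). Without Day 4 replicate 2 the adjusted p was 0.0749 for Hspa5 and 0.0931 for Dnajb11. Xbp1, the factor spliced in the unfolded protein response, was at 7.82 against 8.65, 9.06 and 8.81 and did not pass (adjusted p = 0.226). The RefSeq sequence before the start of Hspa5 is shown because it holds an ER stress element, CCAAT followed after 9 bases by CCACG, searched on both strands, which overlaps a CCAAT box by construction. The window is chr3:38452766-38453015 on the plus strand of GRCr8, it ends just before the start site, and capitals mark the element.
Hspa5: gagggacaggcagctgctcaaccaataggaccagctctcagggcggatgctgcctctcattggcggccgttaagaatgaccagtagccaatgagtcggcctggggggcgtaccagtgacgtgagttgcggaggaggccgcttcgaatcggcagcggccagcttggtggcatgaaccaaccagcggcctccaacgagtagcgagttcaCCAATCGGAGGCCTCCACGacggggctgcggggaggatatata
The element occupied bases -43 to -25 from the start. It was in 2 of 150 promoters of genes called higher (1.33%), the other being that of Zfand2a, in 0 of 95 of genes called lower, in 0.213% of the 5170 promoters of genes tested and in 0.0765% of all 27457 promoters of 300 bases.

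Of 16 measured heat shock genes 1 was called, Dnajb1, the decrease given above, which is near the 4.68% called over all genes tested, and the median was -0.10. Hspa8, the constitutive Hsp70, was at 12.30 in the control and at 12.16, 11.86 and 11.92 on Day 4 (adjusted p = 0.553). Hspb1, a small heat shock protein gene, was at 10.99 against 10.16, 10.51 and 10.79 (adjusted p = 0.293). Hspb8, another small heat shock protein gene, lay the other way, at 3.61 against 4.81, 5.55 and 6.14, and did not pass (adjusted p = 0.066).

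Metallothioneins, small proteins that bind zinc and copper and take up oxidants, were among the most abundant transcripts that rose. Mt1 rose from 7.71 in the control to 10.28, 10.14 and 10.32, 5.8-fold (log2 difference 2.54, SE 0.29, adjusted p = 0.00299). Mt2A rose from 10.45 to 12.06, 11.79 and 12.09, 2.88-fold (1.53, SE 0.25, adjusted p = 0.015). In both genes the Day 4 arrays lay within 0.4 of each other. Both measured members of the list were thus called higher, and both calls held. Mt1f, a further gene of this family, rose from 6.45 to 9.07, 8.43 and 8.62 (2.26, SE 0.48, adjusted p = 0.039), and was not called without Day 4 replicate 3 (adjusted p = 0.084). Genes of this family resemble each other, so a probe may read more than 1 of them. The sequences before the starts of Mt1 and Mt2A are shown because both genes moved together and carry many copies of the core of the metal response element, TGCNCNC on either strand, a motif that was added after the values were seen. Both windows end just before the start, on the minus strand of GRCr8, at chr19:10832976-10833225 for Mt1 and chr19:10838709-10838958 for Mt2A, and capitals mark each core, read as GNGNGCA where it lies on the other strand.
Mt1: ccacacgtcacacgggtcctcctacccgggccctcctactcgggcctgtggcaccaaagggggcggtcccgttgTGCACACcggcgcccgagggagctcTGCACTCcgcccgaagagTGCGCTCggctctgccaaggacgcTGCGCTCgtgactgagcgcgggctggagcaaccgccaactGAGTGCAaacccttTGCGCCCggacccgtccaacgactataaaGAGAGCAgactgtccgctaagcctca
Mt2A: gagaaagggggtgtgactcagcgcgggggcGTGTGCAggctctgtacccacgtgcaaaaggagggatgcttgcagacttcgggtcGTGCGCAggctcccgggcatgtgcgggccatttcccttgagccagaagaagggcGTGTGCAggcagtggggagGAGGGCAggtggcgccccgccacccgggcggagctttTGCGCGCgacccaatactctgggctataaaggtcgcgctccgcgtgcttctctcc
The core was found 7 times in Mt1 and 5 times in Mt2A. A single core is common, in 59.3% of promoters of genes called higher, 67.4% of those called lower and 60.7% of those tested. At least 5 copies were in 1.18% of promoters of genes tested and in 0.652% of all, and at least 7 in 0.0774% and 0.0983%.

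Oxidant defence gave 3 higher genes and no lower one among 24 measured Nrf2 targets and antioxidant enzymes, with a median of 0.31. Over all genes tested the shares were 2.81% higher and 1.87% lower. Of the 24 genes 13 were above the control in all 3 arrays and 5 were below it. A control under 5 was found in 2 of the 24, among them Nqo1. Nfe2l2, which encodes the factor Nrf2, rose from 6.87 to 8.22, 8.04 and 8.19, 2.43-fold (1.28, SE 0.25, adjusted p = 0.0271). Nqo1, a quinone reductase and Nrf2 target, was at 3.65 in the control and at 4.96, 5.99 and 5.73 on Day 4 (adjusted p = 0.0365). Prdx3, the mitochondrial peroxiredoxin gene, rose from 6.09 to 6.99, 7.06 and 7.04, 1.93-fold (0.95, SE 0.19, adjusted p = 0.0359). Hmox1, the heme oxygenase gene, was above the control in all 3 arrays, at 10.15 against 11.09, 10.68 and 11.13, without passing the test (adjusted p = 0.152). Slc7a11, the cystine carrier of the same pathway, lay below it, at 5.60 against 3.61, 4.39 and 4.50 (adjusted p = 0.0639). None of the 3 calls held, with adjusted p of 0.0724 and 0.0855 for Nfe2l2 and Nqo1 without Day 4 replicate 3 and 0.0951 for Prdx3 without Day 4 replicate 2.

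Targets of p53 and Gadd45 genes act in growth arrest and DNA damage. Of 12 measured, 3 were higher and none lower, beside 2.81% and 1.87% over all genes tested. The median was 0.76, with 5 of the 12 under 5 in the control, and 0.55 over the 16 members on the array. Tp53inp1, a p53 target that promotes autophagy and death, rose from 6.18 to 8.09, 7.48 and 7.83, 3.07-fold (1.62, SE 0.29, adjusted p = 0.0218). Gadd45g, a stress sensor, was at 4.44 against 6.23, 6.25 and 7.06 (adjusted p = 0.0326), and Plk3, a polo-like kinase gene, at 3.14 against 5.003, 4.491 and 5.713 (adjusted p = 0.039). Cdkn1a, the cycle inhibitor p21, was at 5.42 against 7.08, 6.60 and 6.75 and did not pass (adjusted p = 0.0826), nor did Mdm2, the ligase that degrades p53, at 5.89 against 8.02, 7.39 and 6.84 (adjusted p = 0.132). Gadd45g and Tp53inp1 lost their calls without Day 4 replicates 2 and 3, at adjusted p = 0.0635 and 0.0616, and Plk3 without Day 6 replicate 3, at 0.0664.

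Some DNA replication genes were higher than in the control. Of 23 on the array 9 were measured, and 7 of these had a control under 5 and entered through Day 4, so those 7 were bound to lie higher in at least 1 Day 4 array. Of the 9 genes 4 were called higher. The median was 1.30 over these 9 and 0.62 over all 23. Pcna, the sliding clamp of DNA polymerases, rose from 5.83 to 7.18, 7.08 and 7.12, 2.45-fold (1.30, SE 0.21, adjusted p = 0.0144). Mcm4, a subunit of the replicative helicase, was at 3.57 against 5.31, 5.03 and 5.34 (adjusted p = 0.00591), Prim1, a primase subunit, at 4.79 against 6.44, 6.14 and 6.04 (adjusted p = 0.0174), and Tyms, the thymidylate synthase gene, at 4.42 against 5.85, 6.16 and 6.47 (adjusted p = 0.0326). In these 4 genes all replicates were more than 1 above the control. The calls of Pcna and Mcm4 held, and those of Prim1 and Tyms were lost without Day 4 replicate 2 (adjusted p = 0.0509 and 0.0845). Dut, a dUTPase gene measured on both sides, was at 6.72 against 6.80, 7.08 and 6.31 (adjusted p = 0.997). None of the 3 measurable genes of mitosis was called.

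Chromatin proteins included some of the firmest increases. H3f3b, which encodes the replacement histone H3.3, rose from 8.89 in the control to 11.36, 11.57 and 11.44, 5.92-fold (log2 difference 2.56, SE 0.22, adjusted p = 0.000773). Hmgb2, a DNA-bending protein of the high mobility group, was at 4.59 against 7.42, 7.59 and 7.51 (adjusted p = 0.000773). In both genes the Day 4 arrays differed by less than 0.3 and the calls held. H3f3b and Emd, like Arrdc3, Slc16a6, Rbm3 and A3galt2 below, are among genes the study chose on these arrays as raised by galactose. Their direction is therefore not independent evidence. Of 19 measured histone genes on the list 3 were higher and none lower, beside 2.81% and 1.87% over all genes tested. The median was 0.77, and 0.10 over the 26 on the array. The others called were H2ac25, at 6.07 against 8.62, 7.92 and 7.47 (adjusted p = 0.0397), and Hist2h2be, at 4.09 against 6.06, 5.88 and 5.68 (adjusted p = 0.0375). Those 2 calls were lost without Day 4 replicate 2, at 0.0958 and 0.0951. H2az2l1, a relative of the histone variant H2A.Z that is not on the list and was picked after its values were seen, was lower, at 6.22 against 4.52, 3.88 and 4.43 (adjusted p = 0.0172), and this call held. Histone genes of a cluster are near-identical, so single members are uncertain. None of 18 measured histone acetyltransferases and deacetylases was called, with a median of -0.02. At the nuclear envelope, 3 of 7 measured genes were higher and none lower, beside 2.81% higher and 1.87% lower over all genes tested. The median was -0.08, and 3 others were below the control in all 3 arrays. Of the 7 genes 2, Sun2 and Emd, had a control under 5 and were bound to lie higher in at least 1 Day 4 array. The called genes were Lmna, the lamin A gene, at 5.30 against 6.55, 6.41 and 6.65 (adjusted p = 0.0171), Sun2, at 4.59 against 5.78, 5.83 and 6.33 (adjusted p = 0.0284), and Emd, at 4.59 against 6.31, 5.70 and 5.74 (adjusted p = 0.0439). The call of Lmna held, and those of Sun2 and Emd did not (0.0622 without Day 4 replicate 2 and 0.0825 without Day 4 replicate 3). The window before the start of H3f3b is shown for its 4 CCAAT boxes, in capitals, at chr10:101757637-101757886 on the minus strand of GRCr8.
H3f3b: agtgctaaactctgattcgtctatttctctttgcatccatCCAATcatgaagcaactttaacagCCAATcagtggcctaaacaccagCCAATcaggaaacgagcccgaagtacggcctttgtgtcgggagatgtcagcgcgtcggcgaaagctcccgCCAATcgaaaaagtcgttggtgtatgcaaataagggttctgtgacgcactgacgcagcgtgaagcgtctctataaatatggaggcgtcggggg
At least 4 CCAAT boxes on either strand were in 1.3% of promoters of genes tested and in 0.754% of all. At least 1 was in 44.7% of promoters of genes called higher, in 36.8% of those called lower and in 38% of those tested, shares that were not tested against each other.

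Of the cytoskeleton genes, some tubulins rose. The tubulin and actin lists hold genes the study chose on these same arrays, so their direction is not independent evidence. Of 9 measured tubulins and stathmins 3 were higher and none lower (median 0.70), beside 2.81% and 1.87% over all genes tested. Among the 9 genes 2, Tubb3 and Stmn4, had a control under 5 and were bound to lie higher in at least 1 Day 4 array. Tubb2a rose from 6.37 to 7.92, 7.85 and 7.93, 2.89-fold (1.53, SE 0.24, adjusted p = 0.0142). Tubb3, a tubulin typical of neurons, was at 4.16 against 6.02, 5.93 and 5.97 (adjusted p = 0.00349), and Stmn4, a regulator of microtubules, at 3.09 against 6.70, 5.76 and 5.80 (adjusted p = 0.0142). All of these calls held, and the replicates of both tubulins lay within 0.1 of each other. Of 18 measured actin cytoskeleton and contractile genes 2 were higher and none lower (median 0.57), beside 2.81% and 1.87% over all genes tested. These were Csrp1, a protein of actin bundles, at 5.49 against 6.94, 6.97 and 7.31 (1.58, SE 0.25, adjusted p = 0.0142), and Lmna. The latter is the lamin A gene counted at the nuclear envelope above and is not an actin gene. Tagln, a marker of contractile cells, was at 5.59 against 6.997, 7.977 and 7.499 and missed the threshold (adjusted p = 0.0507). Actb, the beta-actin gene, was at 11.79 against 11.82, 12.08 and 12.26 (adjusted p = 0.582).

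Nutrient handling changed in both directions. Slc16a6, a carrier of ketone bodies and taurine, was at 3.10 in the control and at 8.31, 8.28 and 8.36 on Day 4 (adjusted p = 1.25e-05), and at 8.06, 8.09 and 8.44 on Day 6. Arrdc3, an alpha-arrestin that removes receptors from the cell surface, rose from 5.02 to 9.57, 8.89 and 8.76, 16.6-fold (4.06, SE 0.33, adjusted p = 0.000773), the largest increase measured on both sides. The control signal of Arrdc3 was only just over the minimum of 5, so the size of this increase is uncertain. Txnip, a relative of Arrdc3 that is induced by sugars, was at 7.74 against 10.03, 9.50 and 9.39 and did not pass (adjusted p = 0.0641). Of 12 measured amino acid transporters 2 were higher and 2 lower, beside 2.81% and 1.87% over all genes tested. Slc43a2, a carrier of large neutral amino acids, was at 3.28 against 6.66, 5.86 and 5.82 (adjusted p = 0.00296). Slc3a2, the heavy chain of the Slc7 carriers, rose from 8.14 to 8.98, 9.56 and 9.43, 2.28-fold (1.19, SE 0.27, adjusted p = 0.0451). Slc38a4 was lower, at 5.68 against 4.23, 3.60 and 3.58 (adjusted p = 0.0142), as was Slc38a2. All of these calls held except that of Slc3a2, whose adjusted p was 0.109 without Day 4 replicate 3. Among 14 measured cholesterol synthesis genes, Sqle, the squalene epoxidase gene, was at 4.02 against 5.32, 5.76 and 5.43 (adjusted p = 0.0267) and Tm7sf2, a sterol reductase gene, at 4.77 against 6.08, 5.76 and 5.58 (adjusted p = 0.0475), and Srebf1 was lower. Sqle and Tm7sf2 were not called without Day 4 replicate 2 (0.0749 and 0.105).

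Signalling genes of inflammation included Stat3, the factor activated by cytokines of the interleukin 6 family. It rose from 6.10 to 8.10, 7.89 and 8.17, 3.88-fold (1.96, SE 0.24, adjusted p = 0.00393), and the call held. The list of inflammation and the Stat3 pathway also holds genes the study chose on these arrays. Of its 13 measured genes 2 were higher and 1 lower, beside 2.81% and 1.87% over all genes tested. The median was 0.61, with 4 of the 13 under 5 in the control, and 0.27 over the 26 members on the array. Zfp36, which degrades cytokine messages, rose from 5.90 to 8.05, 7.12 and 8.01 (1.83, SE 0.42, adjusted p = 0.0445). Lifr, a receptor chain that signals to Stat3, was lower, at 5.45 against 4.46, 4.45 and 4.24 (adjusted p = 0.0377). Without Day 4 replicate 3 neither Zfp36 nor Lifr was called (adjusted p = 0.106 and 0.0926). Ccl2, a chemokine that attracts monocytes, was at 5.41 against 6.14, 6.95 and 7.24 without passing (adjusted p = 0.113). The STAT motif, TTCNNNGAA on either strand, was in 7.33% of promoters of genes called higher, in none of 95 of those called lower, in 6.15% of those tested and in 8.68% of all. Of 15 measured immediate early genes Atf3, Zfp36 and Plk3 were called, all higher (median 0.37, and 0.17 over the 22 on the array).

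Among the other large increases measured on both sides, Sdcbp, the adaptor syntenin that sorts cargo into exosomes, rose from 7.20 to 10.40, 9.38 and 9.93, 6.49-fold (2.70, SE 0.36, adjusted p = 0.00557). Pdpn, a membrane glycoprotein of epithelia and lymph vessels, rose from 7.69 to 10.17, 9.56 and 9.72, 4.36-fold (2.12, SE 0.28, adjusted p = 0.00617). Ctsl, a lysosomal protease, rose from 8.79 to 10.65, 10.70 and 11.03, 4-fold (2.00, SE 0.23, adjusted p = 0.00299). All 3 were abundant on Day 4 and none of their replicates came within 1.8 of the control. A3galt2, a galactosyltransferase that makes the alpha-gal glycolipid, rose from 5.24 to 7.22, 7.09 and 7.37, 3.96-fold (1.98, SE 0.24, adjusted p = 0.00377). These 4 calls held. S100a1, a calcium-binding protein, and Gtf2f1, a general transcription factor, rose by 1.80 and 1.63, with adjusted p of 0.0203 and 0.0172, and of 0.0608 without Day 4 replicate 3 and 0.055 without Day 4 replicate 2. Among genes that started under 5, Tmem140, a membrane protein, was at 4.22 in the control and at 10.45, 8.93 and 8.97 on Day 4 (adjusted p = 0.00296). Rbm3, an RNA-binding protein induced by cold, was at 4.995, just under the minimum, against 7.93, 8.09 and 8.04 (adjusted p = 0.000773). Both calls held, as did those of Tmco4 and Cfap300, at 4.34 and 3.88 in the control and at 6.78 to 7.21 and 5.95 to 6.30 on Day 4.

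In the lists below for the machinery of energy and protein synthesis, at most 6.67% of measured genes were called, beside 4.68% over all genes tested. With 1 control array this does not show an unchanged level. None of 51 measured oxidative phosphorylation subunits and none of 46 cytosolic ribosomal proteins was called, with medians of 0.06 and 0.05 against 0.05 over all genes. Of 61 mitochondrial ribosomal proteins 2 were higher, of 35 proteasome subunits 2 (Psma1 and Psmd8, the latter with 1 deposited value, 5.45, in all 3 Day 4 arrays), of 23 translation factors 1 and of 15 ribosome biogenesis genes 1, and none was lower. The last list had a median of 0.60, and of 0.43 over the 22 members on the array. Of its 15 measured genes 12 were above the control in all 3 arrays and 1 was below it. Nip7, which matures the large ribosomal subunit, rose from 5.51 to 7.14, 7.04 and 6.70, 2.72-fold (1.44, SE 0.23, adjusted p = 0.0143), and the translation factor gene Eif1a rose from 6.03 to 7.64, 7.54 and 7.64, 2.99-fold (1.58, SE 0.21, adjusted p = 0.00557). Both calls held. The 10 genes of highest signal were the ferritin chain Ftl1, the crystallins Cryba1, Cryba2, Cryab, Crygd and Crygc, the lens galectin Grifin, the ribosomal RNA Rn5-8s, Rps29 and Eef1a1. None of them was called. Cryab, the alpha-B crystallin, was at 13.26 in the control and at 13.19, 13.12 and 13.13 on Day 4. Ftl1 was at 13.33 against 13.38, 13.30 and 13.30.

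**Figure D4:**
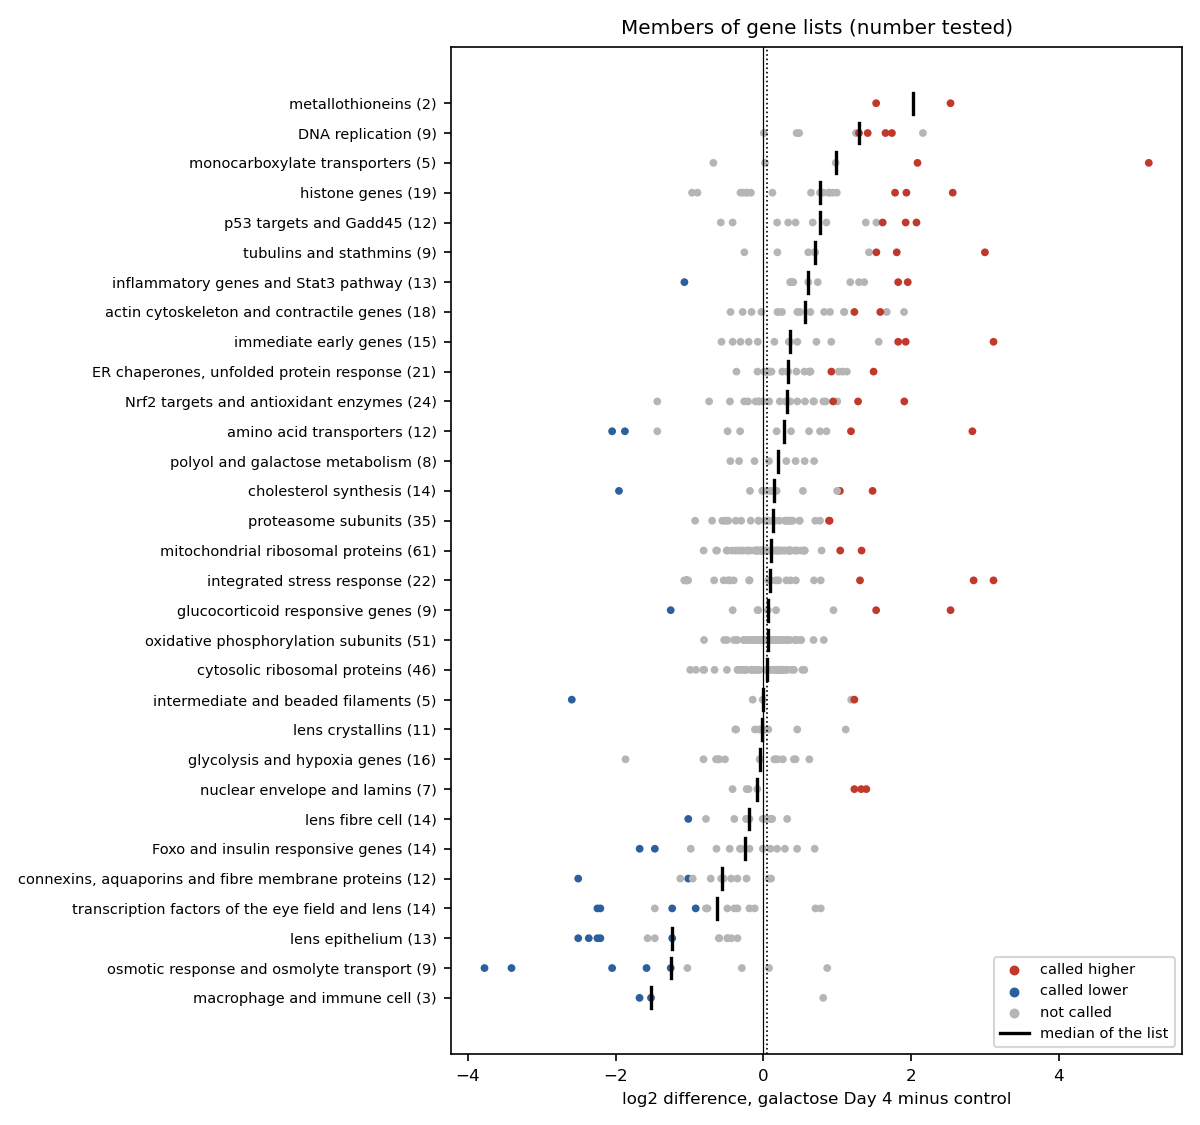
Log2 difference, galactose Day 4 minus control, of the measured members of gene lists with at least 2 called genes and of 6 lists with fewer for contrast, in order of the list's median. Each point is a gene, in red where called higher, blue where called lower and grey otherwise, black bars are medians, genes under 5 in the control or on Day 4 have no exact size, the number of genes tested is in parentheses, and the dotted line is the median of all genes at 0.05. Medians run from -1.52 for the 3 measured macrophage and immune cell genes and -1.25 for osmolyte genes to 2.03 for the 2 measured metallothioneins.

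Some genes differed more among the 3 Day 4 lens samples than between galactose and control. The median SD over the Day 4 arrays was 0.19, and Lcn2, the iron-binding acute phase protein lipocalin 2, had an SD of 2.85. Its signals were 8.38, 4.43 and 9.97 on Day 4, 5.26 in the control and 5.25, 9.17 and 4.77 on Day 6, so that neither day was of one kind. Ifi27, an interferon-induced gene, was at 6.35, 7.97 and 9.67 against 6.95, and Lgals3bp, a secreted glycoprotein that interferons raise, at 4.79, 7.19 and 8.03 against 6.23. Both were lowest in replicate 1 and highest in replicate 3. The means over the 8 measured interferon response genes, of which 5 had a control under 5, followed the same order, with values of 5.07, 5.94 and 6.86 in replicates 1, 2 and 3 and 4.87 in the control. Rsad2, the antiviral viperin, was their 1 called gene, at 2.88 in the control and at 5.74, 4.83 and 5.67 on Day 4 (adjusted p = 0.0326, and 0.0825 without Day 4 replicate 3). Pvalb, a calcium buffer protein, was at 7.05, 3.85 and 6.14 against 4.09. Gja1, Efemp1, an extracellular matrix gene, and Car14, a membrane carbonic anhydrase gene, were lowest in replicate 1, as was the mean over the epithelium markers, which include Gja1, at 5.30, 6.33 and 4.44 against 7.32, 8.55 and 6.64 in replicate 2. Ndrg2, Rpl10 and Rpl28l3 were highest in replicate 1. None of these 10 genes was called.

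**Figure D5:**
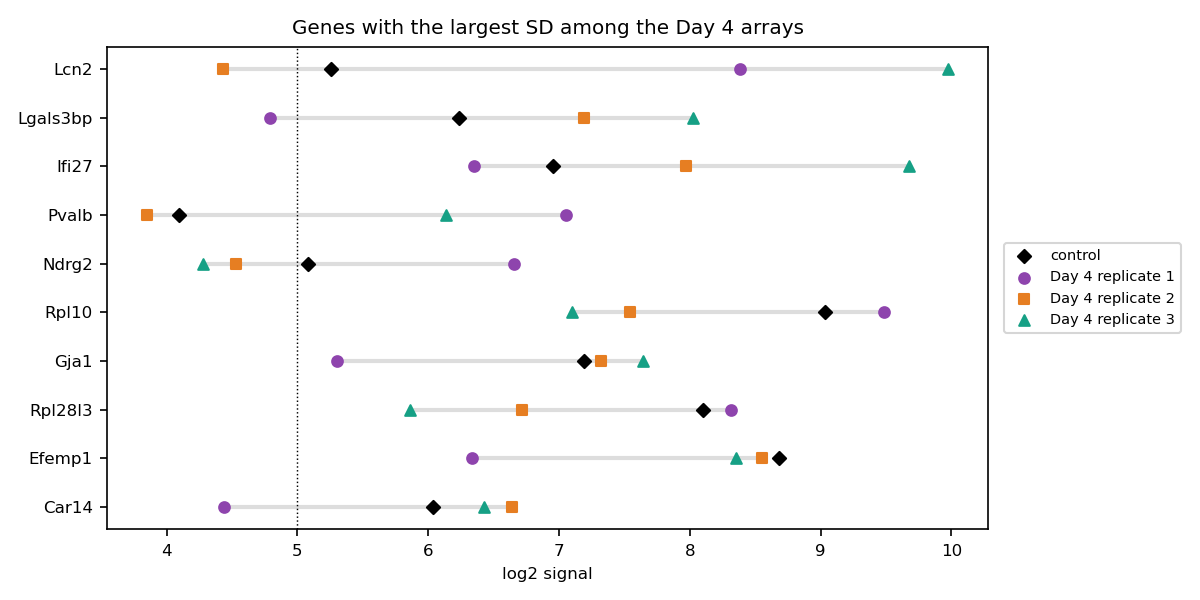
Log2 signal (x axis) of the 10 genes with the largest SD over the 3 galactose Day 4 arrays, from Lcn2 at the top. Circles, squares and triangles are Day 4 replicates 1, 2 and 3, black diamonds the control, grey bars the range of the replicates and the dotted line 5. Lcn2 spans 4.43 to 9.97 around a control of 5.26.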

How the data were processed

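Total RNA of cultured rat lenses was labelled and hybridized to GeneChip Rat Gene 2.0 ST arrays. R served the authors for preprocessing, as their methods state, and log2 signals were deposited, 1 for each of 36685 probe sets. The methods of background correction and normalization are not given in the sources used here, and the values were used as deposited. Precision is limited by how few arrays there are. Of the probe sets, 18511 carry 1 gene name, 575 several and 17599 none in the platform annotation. The 7 arrays of the control, galactose Day 4 and galactose Day 6 were fitted in limma 3.58.1 (R 4.3.3, lmFit and eBayes) with 1 group per condition, and Day 4 minus control was taken as the contrast. The Day 6 arrays served the spread alone, and the 6 inhibitor arrays were not used. The prior had 5.03 degrees of freedom and a standard deviation of 0.221. The fit was tested on simulated data. Tables were made in Python 3.11.15 with pandas 2.3.3.

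The genes named are the 15 largest called increases and decreases with all 4 arrays at 5 or more, up to 10 per direction among the other called genes, up to 4 members of lowest adjusted p of each list described with those that define its function, the 10 of highest signal and the 10 of largest SD. The 72 gene lists and the comparison were chosen with earlier results of these data known, and lists are described by counts and medians with no test. Promoters are RefSeq windows of GRCr8, from 250 bases before to 50 after the start, matched for 5170 genes, and the part before the start is printed. Those for Atf3 and Slc16a6 were looked for as well. Alternatives were other filters, scalings, spreads and thresholds, the replicate number as a block, and leaving out each galactose array.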

Additional observations from a re-analysis of the deposited data

How the results depend on the processing

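No call was counted as reversed in any alternative fit, but for most alternatives this was fixed beforehand. All 288 called genes lay on 1 side of the control in every Day 4 array, so leaving out arrays could not reverse them. Other filters, spreads, priors and thresholds leave the difference itself unchanged. The kept direction is therefore no support for the calls. Of 100 named called genes 45 were called in each fit that left out 1 galactose array. The count of calls was 21 (11 higher and 10 lower) with each gene's own spread, 34 (17 and 17) with the spread of the Day 4 arrays alone, 85 (54 and 31) with no filter on signal, 108 (70 and 38) over the 4358 genes at 5 or more in all 4 arrays, and 681 (408 and 273) at an adjusted p under 0.1. Leaving out 1 galactose array gave 98 to 419 calls, 63 to 249 higher and 35 to 170 lower. Without replicate 1 of both days there were 792 (442 and 350), of which 285 were among the 288. The cause was not tested. Counts with median centring (339), quantile normalization (313), a trended and robust prior (299), other filters (223 and 256), another choice of probe set (288), a minimum difference of 1 (249) and a difference of 1 in each array with no test (234) were within 1.5 times the count reported. The lone control could not be left out, so nothing here tests what another control would give.

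The labels give Day 4 and Day 6 samples the same replicate numbers. Deviations from the group means correlated across genes at r = 0.355, 0.079 and 0.270 for numbers 1, 2 and 3. Between unlike numbers r lay from -0.314 to 0.148. Numbers 1 and 3 matched best with themselves, while Day 4 replicate 2 correlated best with Day 6 replicate 3 (0.144). The main fit did not take the numbers to pair the samples, and whether they do was not tested. With the replicate number as a block among the galactose arrays, 491 genes (273 higher and 218 lower) were called, with 287 of the 288 among them.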

Other observations

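The families in this section were put together by gene symbol after the values were seen, and their counts are a description, to be read beside the 4.68% called among all genes. Of 5 enzymes of de novo purine synthesis 4 were measured and 3 called higher, but all 4 had a control under 5 and entered through Day 4, so that they were bound to lie higher in at least 1 Day 4 array, and their count is no support for a direction. Ppat, which starts the pathway, was at 4.09 in the control and at 5.03, 5.36 and 5.40 on Day 4, Gart at 4.79 against 5.93, 5.81 and 5.90 and Atic at 4.72 against 5.81, 5.58 and 5.63, all from a control signal under 5 (limma adjusted p = 0.0371, 0.0425 and 0.0475). Adsl, the fourth, was at 4.94 against 5.82, 5.79 and 5.82 (adjusted p = 0.0689). None of the 3 calls held in every fit without 1 galactose array, with adjusted p up to 0.0958 for Ppat without Day 4 replicate 2, and 0.101 for Gart and 0.103 for Atic without Day 4 replicate 3. Of 26 measured general transcription factors of RNA polymerase II 4 were higher and none lower (median 0.28, with 9 of the 26 under 5 in the control), and of 11 of its subunits 2 were higher and none lower (median 0.34). Gtf2h4, a subunit of TFIIH, was at 3.45 in the control and 5.09, 5.48 and 5.53 on Day 4 (adjusted p = 0.0109), and Gtf2e1, of TFIIE, at 4.19 against 5.83, 5.47 and 5.92 (adjusted p = 0.0151), and both calls held.

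Solute carriers changed in both directions. Of 95 measured genes 7 were higher and 9 lower, 16.8% of them, of 344 on the array, with 25 under 5 in the control and 10 under 5 in all 3 Day 4 arrays. Beside those described above, both measured exchangers of sodium for calcium and potassium were lower, Slc24a2 at 6.11 in the control and 4.08, 4.43 and 4.06 on Day 4 (adjusted p = 0.00991) and Slc24a4 at 6.56 against 5.27, 5.49 and 5.34 (adjusted p = 0.0367, and 0.0856 without Day 4 replicate 3). Slc4a11, a membrane carrier of water and protons, was at 5.33 against 3.69, 3.57 and 3.82 (adjusted p = 0.0109), and Slc20a1, a phosphate carrier, was higher, at 4.36 against 6.87, 6.06 and 6.31 (adjusted p = 0.0371, and 0.0799 without Day 4 replicate 3). Of 9 measured genes of lysosomal amino acid sensing 1 was higher and 1 lower, Rragd, a Rag GTPase, at 4.45 against 6.66, 5.97 and 6.04 (adjusted p = 0.0171), and Castor2 at 5.01 against 4.04, 3.37 and 3.51 (adjusted p = 0.0408, and 0.102 without Day 4 replicate 3). Of 20 measured microRNA genes none was called.

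Probe sets outside the gene table were fitted by themselves. Of 210 with several gene names and 3287 with none, limma called 0 at an adjusted p under 0.05, and 24 and 246 had an unadjusted p under 0.05.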
